A study of Rattus norvegicus with 60 samples.

Results

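This is an account of 43 genes of the motile cilium in the lungs of rats that inhaled multi-walled carbon nanotubes (MWCNT). The genes were chosen by name as parts of the axoneme or as factors that build it, and all 43 were found among the 30045 gene rows of the count table. Of these, 39 had enough counts to be tested, among 15995 tested genes. RNA was sequenced from a piece of lung of male Fischer 344 rats (F344/DuCrl, 3 months old), an inbred strain. The rats breathed either filtered air or MWCNT, fibrous carbon particles, in whole-body chambers for 6 hours a day on 3 days, and lungs were taken 1 day later. The cumulative doses were 180, 90, 45, 22.5 and 11.25 mg/m3. Each dose made up 1 of 5 sets, with 6 rats in MWCNT and a separate group of 6 rats in filtered air. The labels of single samples give the 2 lowest as 22 and 11 mg/m3. After 7 libraries that the submitters labelled as outliers were set aside, 53 remained, each from 1 rat. Exposed rats then numbered 5, 4, 6, 6 and 5 in the sets of 180, 90, 45, 22.5 and 11.25 mg/m3, and air rats 6, 6, 3, 6 and 6. Each dose was compared only with the air rats of its own set, so dose and set cannot be told apart.

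A motile cilium is a whip of microtubules, the axoneme, with a ring of doublets around a central pair. Dynein motors stand on the doublets as an outer and an inner row of arms, and the radial spokes, the nexin links and the central pair time their strokes. In the lung these genes are best known from ciliated cells of the airway surface, whose beat moves mucus, and loss of many of them causes primary ciliary dyskinesia. Foxj1 and the RFX factors are the known switches of the programme, and RFX factors bind a DNA element called the X-box.

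Promoter sequences are shown because the members moved together and share known regulators. RefSeq windows on the build GRCr8, each of 300 bases with 250 of them before the gene start, were found for 35 of the 43 genes, of which 2 matched by a synonym. Armc4, Dnah3, Rsph1, Rsph4a, Spag16, Dnaaf1, Lrrc6 and Tppp3 had none. Both strands were searched. A full X-box was searched for in 1 fixed form only: GTTGCC, any 2 bases and then GGNAAC. That form lay in 1 of the 35 windows, or 2.86%, against 0.331% of all 27457 windows. Forms with another spacing or other letters were not searched for, so windows with any full X-box were not counted. A GTTGCC marked below can be part of such a form. The outer letters GTTGCC, which are part of the full element and were searched for after the files were seen, lay in 15 of the 35 windows, or 42.9%, against 12.2% of all windows. The forkhead core TGTTTAC, the kind of letters that Foxj1 reads, lay in 2 windows, those of Dnali1 and Spef2, or 5.71% against 3.76% of all windows. In the 6 stretches below, which lie before the gene start and run in the direction of the gene, capitals mark GTTGCC, its reverse complement or, in Dnaaf2, the full form searched for.
Dnai2 (chr10:100258947-100258992, plus strand): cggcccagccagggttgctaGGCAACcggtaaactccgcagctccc
Spag6 (chr17:86261934-86261979, plus strand): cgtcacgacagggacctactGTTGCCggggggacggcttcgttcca
Tekt1 (chr10:57479135-57479180, minus strand): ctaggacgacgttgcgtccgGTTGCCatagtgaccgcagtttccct
Tekt2 (chr5:143907728-143907773, minus strand): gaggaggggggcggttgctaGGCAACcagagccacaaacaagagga
Dnaaf2 (chr6:93406378-93406431, minus strand): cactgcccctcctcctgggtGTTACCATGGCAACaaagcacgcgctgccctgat
Dnah10 (chr12:37607809-37607840, minus strand): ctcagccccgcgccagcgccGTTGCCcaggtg
Dnai2, Spag6 and Tekt1 were called higher in all sets but the lowest dose, whereas Dnah10 was called in none. GTTGCC lay in 4 of the 10 windows of genes called in the upper 4 sets, in 6 of 13 windows of genes called in 1 to 3 sets and in 5 of 10 windows of genes called in none. These counts describe letters in a window, and binding at them was not measured.

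Between 17 and 23 of the 39 tested cilium genes rose after MWCNT in each set from 22.5 mg/m3 upward, and none passed the test at 11.25 mg/m3. A gene was called at an adjusted p under 0.05 over all tested genes. In the 180 mg/m3 set, 17 of the 39 tested members rose and 1 fell, beside 12% and 10.9% of all genes. In the 90 mg/m3 set 22 rose, beside 6.82% of all genes, and in the 45 mg/m3 set 23 rose, beside 3.32%. In the 22.5 mg/m3 set 21 rose, beside 5.18%. In these 3 sets 0 members fell, beside 4.28%, 2.09% and 1.62% of all genes. In the 11.25 mg/m3 set 0 members were called, beside 0.025% of all genes called higher and 0% called lower. There 0 members had an unadjusted p under 0.05 either, and DESeq2 also called 0. In lung tissue a change in the number of ciliated cells and a change of RNA in each such cell cannot be told apart.

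The members' median log2 fold change was 0.35, 0.49, 0.58, 0.47 and 0.04 at 180, 90, 45, 22.5 and 11.25 mg/m3. Over all genes tested the medians were -0.0066, -0.0064, -0.003, -0.003 and 0.0065. The log2 fold change was above 0 for 35, 38, 38, 37 and 25 of the 39 members, which the heat map by role shows as red rows and a pale column at 11.25 mg/m3. Among the 39 members, 12 rose in all of the upper 4 sets: Dnai2, Dnah1, Dnah12, Ccdc39, Spag6, Spag17, Dnaaf1, Zmynd10, Lrrc6, Tekt1, Tekt4 and Ak7. Another 8 were called in 3 sets, 3 in 2 sets and 6 in 1 set. The 10 called in no set were Dnai1, Dnah9, Dnah11, Dnal1, Dnah10, Cfap44, Ccdc40, Drc1, Rsph9 and Spef2. The share of all genes called in each number of sets was not counted, so these counts have no background beside them. For the mean effect over the 5 sets, 33 members rose and 1 fell, beside 16.5% and 15.7% of all genes, and the median was 0.37 against -0.0032 over all genes. The call counts leaned on single rats at 2 doses: 11 members rose at 180 mg/m3 without replicate 4 of the exposed rats. At 45 mg/m3, with 3 air rats, 15 rose without air replicate 2 and 11 without air replicate 4. Of the 84 calls of members in single sets, 52 were kept in every fit that left out 1 rat and 9 were lost in over 50% of such fits. Among the 12 genes called in the upper 4 sets, Dnai2, Dnah1, Dnah12, Spag6, Spag17, Dnaaf1 and Tekt1 kept all 4 calls in every such fit, and the other 5 did not.

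**Figure D1:**
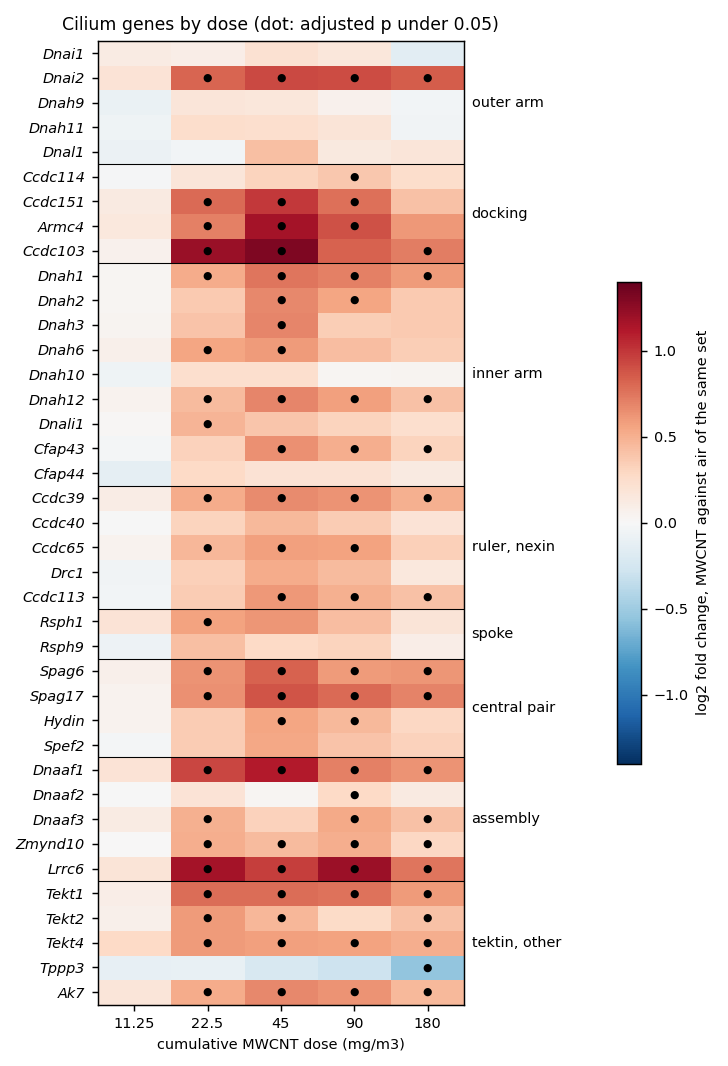
Log2 fold change of each of the 39 tested cilium genes (rows, grouped by role) against the air rats of the same set, at 5 cumulative doses in mg/m3 (columns), with a dot where the adjusted p is under 0.05. The columns from 22.5 to 180 hold 17 to 23 rises each, the 11.25 column holds none, and Tppp3 is the only gene with a called fall.

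The ranges of single rats follow these calls. In the 90 mg/m3 set every exposed rat lay above every air rat for 26 of the 39 members, beside 8.82% of all genes, and at 45 mg/m3 for 29, beside 9.23%. In the 22.5 mg/m3 set that held for 12 members, beside 2.15%, and at 180 mg/m3 for 8, beside 7.8%. In the 11.25 mg/m3 set it held for 0 members, beside 0.35% of all genes. The opposite order, all exposed rats below all air rats, was seen only for Tppp3, at 180 mg/m3 (beside 5.16% of all genes) and at 90 mg/m3 (beside 2.84%). It held for 0 members in the sets of 45, 22.5 and 11.25 mg/m3, beside 3.84%, 0.219% and 0.344% of all genes.

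The outer dynein arm held both a strong rise and genes with no call. Dnai2, which encodes an intermediate chain of the arm, rose in the upper 4 sets and was the only 1 of 5 tested outer arm genes to be called in any set. In the 180 mg/m3 set its level was 17.3, 17.8, 21, 16.2 and 16.4 counts in every 1000000 counts of its library (CPM) in the 5 exposed rats, against 7.46 to 12.8 with a median of 9.69 CPM in air. After 90 mg/m3 it was 19.1, 18.9, 17.4 and 19.5 CPM in the 4 exposed rats, against 7.53 to 11.9 with a median of 10.1 CPM in air. Exposed and air rats did not overlap in either set. In the 45 mg/m3 set the exposed rats ran from 16 to 21.7 with a median of 18 CPM, and the 3 air rats had 10.6, 8.48 and 9.63 CPM. After 22.5 mg/m3 they ran from 14.2 to 20.1 with a median of 17.3 CPM, against 7.54 to 12.6 with a median of 9.47 CPM in air. These groups were also apart. After 11.25 mg/m3 the exposed values were 14.1, 14.2, 14.4, 15.7 and 9.08 CPM, against 7.94 to 15.1 with a median of 11.9 CPM in air, and the groups overlapped. The log2 fold changes of Dnai2 were 0.85 ± 0.15 (SE, adjusted p = 1.07e-05) at 180 mg/m3, 0.91 ± 0.15 (SE, adjusted p = 1.46e-05) at 90, 0.92 ± 0.17 (SE, adjusted p = 0.000358) at 45 and 0.81 ± 0.14 (SE, adjusted p = 3.26e-05) at 22.5. As folds these are 1.8, 1.89, 1.9 and 1.75, against 1.14 at 11.25 mg/m3.

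Dnai1 encodes the partner intermediate chain of the same arm and was called in no set. Its exposed rats at 180 mg/m3 had 8.77, 10, 11.1, 10.2 and 10.2 CPM, against 8.16 to 14.1 with a median of 11.3 CPM in air. At 90 mg/m3 they had 14.1, 11.7, 12.5 and 13.5 CPM, against 8.25 to 13.6 with a median of 11.6 CPM in air. The ranges overlapped in all 5 sets, and the mean log2 fold change over the sets was 0.09 ± 0.06 (SE, adjusted p = 0.27). The level of Dnai2 was therefore also read as a percent of the level of Dnai1 in the same library, a measure chosen after the values were seen and given with no test. Gene lengths were not used, so this percent compares rats and not the levels of the genes. It was 158.4 to 197.2% in the rats exposed to 180 mg/m3 and 69.2 to 99.3% in their air rats. In the 90 mg/m3 set it was 135.4 to 161.2% against 74.5 to 105% in air, and at 45 mg/m3 133 to 150% against 76.9 to 94%. At 22.5 mg/m3 it was 112.4 to 142.3% against 70.9 to 94.4%. At 11.25 mg/m3 the ranges were 87.6 to 128% and 91.3 to 127%, so exposed and air rats overlapped only there, as the panel of this percent shows.

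The other 3 tested outer arm genes were called in no set and not for the mean effect. The heavy chain genes Dnah9 and Dnah11 had mean log2 fold changes of 0.05 ± 0.07 (SE, adjusted p = 0.601) and 0.11 ± 0.05 (SE, adjusted p = 0.0856). The light chain gene Dnal1 had 0.12 ± 0.08 (SE, adjusted p = 0.25). For Dnai2 the mean effect was 0.74 ± 0.07 (SE, adjusted p = 8.63e-13). Dnah5, the other main heavy chain, could not be tested: its 53 libraries held 303 counts in all, at most 13 in a library.

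**Figure D2:**
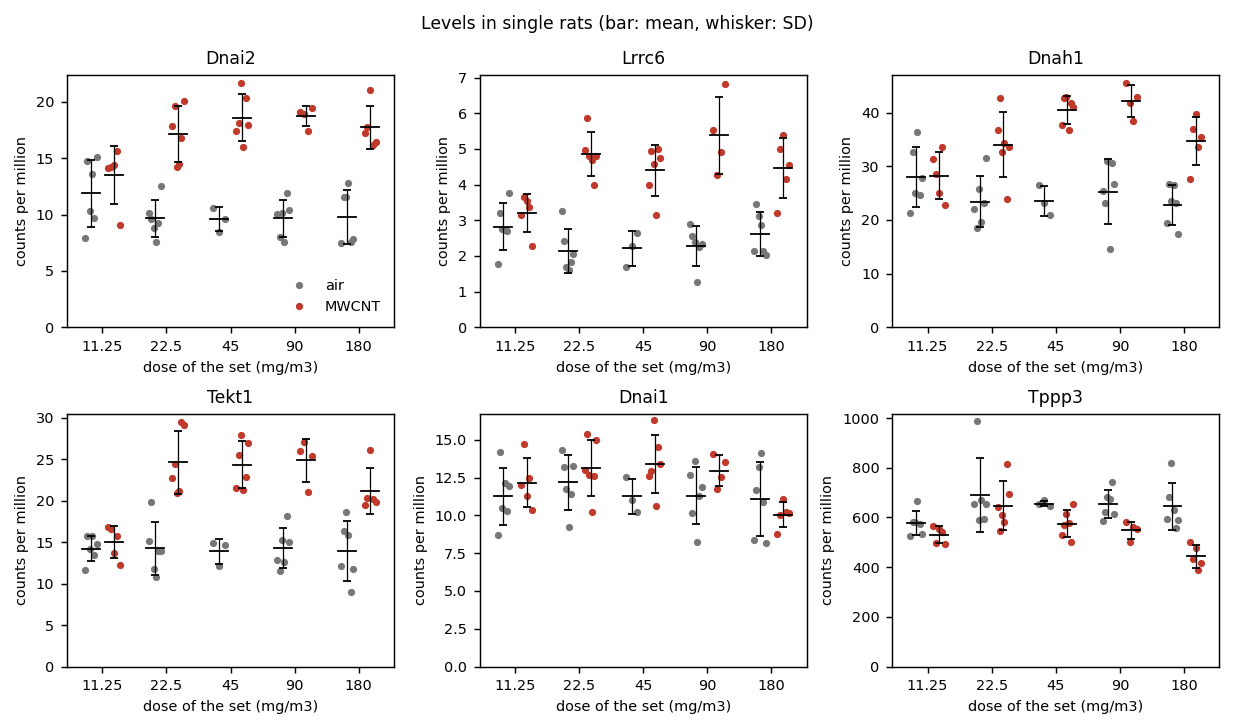
Level in single rats (points, CPM) of 6 cilium genes by the cumulative dose of the set in mg/m3, for air and MWCNT rats, with the mean and SD of each group. From 22.5 mg/m3 upward Dnai2 and Tekt1 stand above air without overlap, Lrrc6 does so but for 180 mg/m3 and Dnah1 but for 22.5 mg/m3, Dnai1 overlaps air throughout, and Tppp3 lies below air at 180 mg/m3.

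Genes that anchor the outer arm rose at several doses. All 4 were called higher for the mean effect, beside 16.5% of all genes, with a median log2 fold change of 0.66. The median over the 5 outer arm genes was 0.11. Ccdc103, a factor that attaches dynein arms to the doublet, was at 1.83 to 3.81 with a median of 2.73 CPM in rats exposed to 22.5 mg/m3, against 0.67 to 1.71 with a median of 1.21 CPM in air. After 45 mg/m3 it ran from 2.27 to 4.24 with a median of 2.76 CPM, and the 3 air rats had 0.805, 1.36 and 1.41 CPM. Neither pair of groups overlapped. Its log2 fold change was 1.21 ± 0.26 (SE, adjusted p = 0.00127) at 22.5 mg/m3 and 1.30 ± 0.33 (SE, adjusted p = 0.00946) at 45, the largest of any member at those doses. The call at 45 mg/m3 was lost in 1 of 9 fits that each left out 1 rat, the fit without air replicate 1. After 180 mg/m3 the log2 fold change of Ccdc103 was 0.72 ± 0.27 (SE, adjusted p = 0.0456), with groups that overlapped. That call was lost in 7 of 11 fits that each left out 1 rat. At 90 mg/m3 the change was 0.82 ± 0.28, which missed the threshold (adjusted p = 0.0508).

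Armc4, which helps to dock the outer arm, had 4.81, 5.19, 2.85 and 3.2 CPM at 90 mg/m3, against 1.34 to 2.74 with a median of 2.13 CPM in air. At 45 mg/m3 it ran from 3.01 to 4.69 with a median of 3.6 CPM, and the air rats had 1.68, 1.78 and 1.33 CPM. Every exposed rat lay above every air rat in both sets. The log2 fold changes were 0.89 ± 0.25 (SE, adjusted p = 0.0119) and 1.17 ± 0.29 (SE, adjusted p = 0.00943). These calls were lost in 2 of 10 fits at 90 mg/m3 and 1 of 9 at 45 that each left out 1 rat. Armc4 also rose at 22.5 mg/m3, by 0.70 ± 0.23 (SE, adjusted p = 0.0462), where the groups overlapped and the call was lost in 8 of 12 fits that each left out 1 rat. That call was also lost in 6 of 9 other ways of processing, with no filter and with that set fitted alone among them. Ccdc151, a subunit of the docking complex, had 9.18, 5.73, 7.56 and 8.25 CPM at 90 mg/m3, against 3.32 to 5.37 with a median of 4.38 CPM in air. It rose at 90, 45 and 22.5 mg/m3 by 0.78, 0.99 and 0.80 on the log2 scale, without overlap of the groups. At 180 mg/m3 its change was 0.42 ± 0.17 (SE, adjusted p = 0.0661). Ccdc114, another subunit, was called at 90 mg/m3, 0.38 ± 0.12 (SE, adjusted p = 0.0276), a call that was lost in 4 of 10 fits that each left out 1 rat.

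Among the 9 tested inner arm genes, 8 rose for the mean effect, beside 16.5% of all genes. Dnah1, an inner arm heavy chain, rose in the upper 4 sets. Its exposed rats had 27.7, 36.9, 39.8, 33.7 and 35.5 CPM at 180 mg/m3, against 17.4 to 26.7 with a median of 23.3 CPM in air. After 90 mg/m3 they had 45.5, 41.9, 38.4 and 42.9 CPM, against 14.6 to 31 with a median of 26 CPM in air. In the 45 mg/m3 set they ran from 36.8 to 43 with a median of 41.4 CPM, and the air rats had 26.4, 23.2 and 20.9 CPM. The groups were apart at those 3 doses and overlapped at 22.5 mg/m3, where exposed rats ran from 23.9 to 42.7 with a median of 34 CPM and air rats from 18.5 to 31.5 with a median of 22.6 CPM. Its log2 fold changes were 0.60 ± 0.14 (SE, adjusted p = 0.00102), 0.70 ± 0.15 (SE, adjusted p = 0.000488), 0.75 ± 0.16 (SE, adjusted p = 0.00249) and 0.52 ± 0.13 (SE, adjusted p = 0.00812) from the highest dose down. In the 11.25 mg/m3 set the rats had 31.4, 28.6, 24.9, 33.5 and 22.8 CPM, against 21.2 to 36.4 with a median of 26.5 CPM in air, with a log2 fold change of 0.03 ± 0.14.

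The other inner arm heavy chains were called in different numbers of sets, and differences between the genes were not tested. Dnah12 rose in the upper 4 sets, by 0.41, 0.58, 0.68 and 0.45 on the log2 scale. Dnah2 was called at 90 and 45 mg/m3, at 0.55 and 0.67. Dnah6 was called at 45 and 22.5 mg/m3, at 0.60 and 0.55, and Dnah3 at 45 mg/m3 only, at 0.68. Dnah10 was called nowhere, with a mean log2 fold change of 0.10 ± 0.07 (SE, adjusted p = 0.308). Of the other inner arm parts, Cfap43, which tethers an inner arm, was called at 180, 90 and 45 mg/m3, at 0.31, 0.51 and 0.64. The call at 180 mg/m3 was lost in 7 of 11 fits that each left out 1 rat, with no filter and with the air rats of the 5 sets pooled as control. The partner gene Cfap44 was called in no single set, and its mean log2 fold change was 0.14 ± 0.05 (SE, adjusted p = 0.0406). Its call for the mean effect was lost in 24 of 53 fits that each left out 1 rat. The light intermediate chain gene Dnali1 was called at 22.5 mg/m3, 0.48 ± 0.12 (SE, adjusted p = 0.0107). Dnah7 was not tested, with 40 counts in the 53 libraries and 0 counts in 22 of them.

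Genes of the ruler and the nexin link rose as well. All 5 were called higher for the mean effect, beside 16.5% of all genes, with a median log2 fold change of 0.37. Ccdc39, which with Ccdc40 sets the spacing of the arms along the doublet, had 26.9, 30.1, 35.4, 26.3 and 30.5 CPM at 180 mg/m3, against 15.3 to 26.1 with a median of 20.7 CPM in air. At 90 mg/m3 it had 30.8, 33.8, 30.9 and 32.6 CPM, against 14.6 to 24.7 with a median of 20.2 CPM in air. In the 22.5 mg/m3 set it ran from 24.8 to 36.5 with a median of 29.9 CPM, against 16.8 to 23.6 with a median of 21.6 CPM. Exposed rats stood above air rats without overlap in all of the upper 4 sets. Its log2 fold changes were 0.50 ± 0.12 (SE, adjusted p = 0.00209), 0.63 ± 0.13 (SE, adjusted p = 0.000461), 0.66 ± 0.15 (SE, adjusted p = 0.00276) and 0.52 ± 0.12 (SE, adjusted p = 0.00241). Ccdc40 was called in no set, with log2 fold changes of 0.19 to 0.46 at the 4 upper doses. Ccdc65, of the nexin link, was called at 90, 45 and 22.5 mg/m3, at 0.56, 0.58 and 0.47. Drc1, of the same link, was called in no set. Ccdc113 was called at 180, 90 and 45 mg/m3, at 0.41, 0.49 and 0.61. Its call at 180 mg/m3 was lost in 7 of 11 fits that each left out 1 rat, and all 3 calls were lost with 57 libraries, the 53 and 4 of those labelled as outliers.

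Both tested genes of the radial spoke were called for the mean effect, beside 16.5% of all genes, and only 1 of them in a single set. Rsph1, of the spoke head, ran from 14.8 to 29 with a median of 21.8 CPM at 22.5 mg/m3, against 10.3 to 23 with a median of 13.6 CPM in air. The groups overlapped, and the log2 fold change was 0.57 ± 0.17 (SE, adjusted p = 0.0288), the only call of the role in a single set. It was lost in 7 of 12 fits that each left out 1 rat of that set. Rsph9, also of the spoke head, was called in none, and its mean log2 fold change was 0.20 ± 0.07 (SE, adjusted p = 0.0173). Rsph4a could not be tested, with 19 counts in all, 13 of them in 1 library.

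In the central pair, all 4 tested genes were called higher for the mean effect, beside 16.5% of all genes, at a median log2 fold change of 0.45. Spag6, a protein of the central pair, had 23.1, 26.7, 29.3, 25.6 and 23.6 CPM at 180 mg/m3, against 11.3 to 22.2 with a median of 17 CPM in air. In the 90 mg/m3 set it had 31.1, 27.7, 28.3 and 29.2 CPM, against 15 to 22.2 with a median of 18.9 CPM in air. After 45 mg/m3 it ran from 25.8 to 35.1 with a median of 31 CPM, and the 3 air rats had 18.6, 17.4 and 15.5 CPM. The groups were apart in these sets and at 22.5 mg/m3. The log2 fold changes were 0.61 ± 0.14 (SE, adjusted p = 0.000616), 0.60 ± 0.14 (SE, adjusted p = 0.00254), 0.82 ± 0.16 (SE, adjusted p = 0.000742) and 0.63 ± 0.13 (SE, adjusted p = 0.000581). After 11.25 mg/m3 the values were 21.7, 22.1, 20.8, 21.4 and 18.1 CPM, inside the air range of 13.1 to 24.5 CPM. Spag17, a central pair protein as well, rose in the same sets, by 0.69, 0.80, 0.88 and 0.64. Hydin, of the central pair, was called at 90 and 45 mg/m3, at 0.46 and 0.56. Each of these Hydin calls was lost in 7 fits that left out 1 rat. Spef2 was called in no set, and for the mean effect at 0.32 ± 0.09 (SE, adjusted p = 0.00339). Spag16 was not tested, with 259 counts in all.

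The factors that assemble dyneins in the cytoplasm included the strongest member. Lrrc6, one of these factors, had 5.53, 4.28, 4.91 and 6.81 CPM at 90 mg/m3, against 1.25 to 2.89 with a median of 2.36 CPM in air. After 22.5 mg/m3 it ran from 3.99 to 5.88 with a median of 4.8 CPM, against 1.61 to 3.27 with a median of 1.94 CPM in air. Both pairs of groups were apart. In the 180 mg/m3 set it had 3.21, 5, 5.39, 4.16 and 4.54 CPM, against 2.02 to 3.47 with a median of 2.5 CPM, and the lowest exposed rat fell within the air range. The log2 fold changes were 0.75 ± 0.18 (SE, adjusted p = 0.00132) at 180 mg/m3, 1.20 ± 0.19 (SE, adjusted p = 5.52e-06) at 90, 0.97 ± 0.22 (SE, adjusted p = 0.00289) at 45 and 1.16 ± 0.17 (SE, adjusted p = 2.83e-06) at 22.5, or 1.69-fold, 2.3-fold, 1.96-fold and 2.24-fold. At 11.25 mg/m3 the values were 3.15, 3.64, 3.54, 3.38 and 2.29 CPM, all within the air range of 1.77 to 3.77 CPM. Its mean log2 fold change, 0.85 ± 0.08 (SE, adjusted p = 1.03e-11), was the largest of the 39.

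Dnaaf1, an assembly factor of the same pathway, ran from 12.7 to 17.1 with a median of 15.4 CPM at 22.5 mg/m3, against 6.76 to 9.21 with a median of 7.69 CPM in air. At 45 mg/m3 it ran from 11.7 to 18.9 with a median of 15.8 CPM, and the 3 air rats had 8.12, 6.19 and 6.72 CPM. After 180 mg/m3 it had 12.8, 14.8, 18.4, 13.3 and 12.8 CPM, against 6.92 to 12 with a median of 8.99 CPM in air. The groups were apart in all of the upper 4 sets. The log2 fold changes were 0.63 ± 0.14 (SE, adjusted p = 0.000373), 0.71 ± 0.14 (SE, adjusted p = 0.000314), 1.11 ± 0.16 (SE, adjusted p = 8.47e-06) and 0.94 ± 0.13 (SE, adjusted p = 6.93e-07) from the highest dose down. Zmynd10 rose in the same sets by 0.29, 0.51, 0.44 and 0.51. Its call at 180 mg/m3 was lost in 6 of 11 fits that each left out 1 rat, with 57 libraries, with no filter and with that set fitted alone, and its call at 45 mg/m3 was lost with 57 libraries. Dnaaf3 rose at 180, 90 and 22.5 mg/m3, by 0.41, 0.53 and 0.50. Its call at 180 mg/m3 was lost in 5 of 11 fits that each left out 1 rat and with that set fitted alone. The call of Dnaaf3 at 22.5 mg/m3 was lost in 1 of 12 such fits. Dnaaf2, whose window holds the form of full X-box searched for above, had the smallest change of the role, with a call at 90 mg/m3, 0.27 ± 0.08 (SE, adjusted p = 0.0136), and 0.02 at 45 mg/m3.

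**Figure D3:**
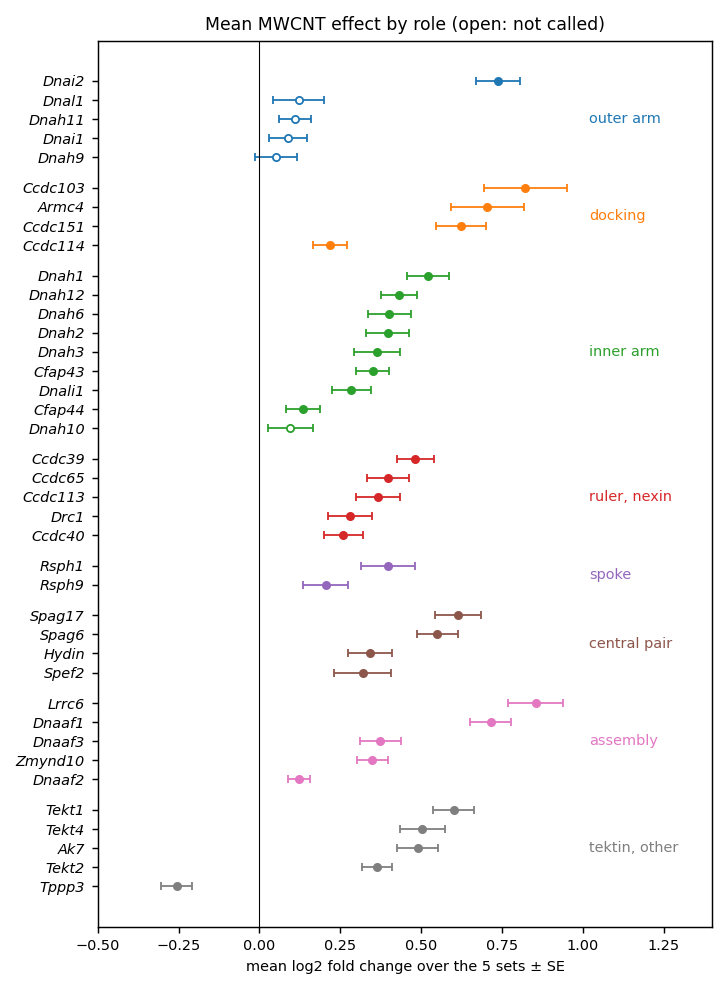
Mean log2 fold change over the 5 sets for each of the 39 tested cilium genes (points, with SE), grouped by role, with open points where the adjusted p is 0.05 or more. In the outer arm Dnai2 stands far to the right of the other 4 genes, and Tppp3 is the only point left of 0.

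Tektins are filament proteins inside the doublet, and all 3 genes were called higher for the mean effect, beside 16.5% of all genes. Tekt1 had 19.5, 20.3, 26.1, 20.2 and 19.9 CPM at 180 mg/m3, against 8.96 to 18.7 with a median of 14 CPM in air. After 90 mg/m3 it had 26, 27, 21.1 and 25.4 CPM, against 11.5 to 18.2 with a median of 14 CPM in air. At 22.5 mg/m3 it ran from 20.9 to 29.5 with a median of 23.6 CPM, against 10.8 to 19.9 with a median of 14 CPM. Exposed and air rats were apart in the upper 4 sets. Its log2 fold changes were 0.59 ± 0.14 (SE, adjusted p = 0.00109), 0.76 ± 0.14 (SE, adjusted p = 0.000146), 0.78 ± 0.16 (SE, adjusted p = 0.00148) and 0.78 ± 0.13 (SE, adjusted p = 2.63e-05). Tekt4 rose in the same sets by 0.51, 0.56, 0.58 and 0.59, with a call at 45 mg/m3 that was lost in 5 of 9 fits that each left out 1 rat. Tekt2 rose at 180, 45 and 22.5 mg/m3, by 0.41, 0.47 and 0.60. Ak7, an adenylate kinase of motile cilia, rose in the upper 4 sets by 0.45, 0.63, 0.67 and 0.52.

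Tppp3, a microtubule-binding protein, went the other way. It was at 502, 434, 477, 387 and 418 CPM in rats exposed to 180 mg/m3, against 558 to 820 with a median of 612 CPM in air. At 90 mg/m3 it was at 583, 502, 560 and 552 CPM, against 586 to 742 with a median of 648 CPM in air. Every exposed rat was below every air rat in both sets. In the 11.25 mg/m3 set the values were 567, 498, 553, 542 and 492 CPM, against 527 to 665 with a median of 578 CPM, and they overlapped. The log2 fold change was -0.55 ± 0.10 (SE, adjusted p = 6.2e-05) at 180 mg/m3, -0.29 ± 0.11 (SE, adjusted p = 0.0888) at 90, -0.22 ± 0.12 at 45, -0.10 ± 0.10 at 22.5 and -0.11 ± 0.10 at 11.25. Of these only the first passed the threshold. Tppp3 gave the most counts of any member, so sums over the members are given without it. Such a sum was 860 to 1100 CPM in rats exposed to 180 mg/m3 and 604 to 914 CPM in their air rats. In the 90 mg/m3 set it was 1045 to 1231 CPM against 648 to 931 CPM, and at 45 mg/m3 1013 to 1266 CPM against 703 to 879 CPM. In the 22.5 mg/m3 set it was 931 to 1225 CPM against 654 to 906 CPM, so these 3 sets did not overlap. After 11.25 mg/m3 it was 754 to 1066 CPM against 691 to 1100 CPM.

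The dependence on dose was tested across the sets. The change in log2 fold change with each doubling of dose, tested as a trend, was called for Dnai2 (0.14 ± 0.05 (SE, adjusted p = 0.0363)), Dnah1 (0.13 ± 0.04 (SE, adjusted p = 0.0428)) and Spag17 (0.14 ± 0.05 (SE, adjusted p = 0.044)), and downward for Tppp3 (-0.11 ± 0.03 (SE, adjusted p = 0.029)). Those are 3 higher and 1 lower of 39, beside 5.58% and 5.07% of all genes. Leaving out single rats took the number of rising trends from 3 to between 0 and 5. It was 0 without air replicate 2 or 4 or exposed replicate 6 at 11.25 mg/m3, or without air replicate 1 or 6 or exposed replicate 4 at 180 mg/m3. The falling trend of Tppp3 was lost without exposed replicate 1 at 11.25 mg/m3, or without air replicate 3 or exposed replicate 5 or 6 at 180 mg/m3. Testing whether the effect varied between sets at all called 2 members, beside 4.92% of all genes: Dnaaf1 (adjusted p = 0.0209) and Lrrc6 (adjusted p = 0.0372). Single rats left out moved that number between 0 and 11, with 0 without air replicate 6 or exposed replicate 6 at 11.25 mg/m3 and 11 without air replicate 1 of that set.

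Both of the next comparisons were added after the values were seen. The mean effect of the upper 4 sets exceeded that of the 11.25 mg/m3 set for 13 of 39 members, beside 3.69% of all genes, and fell short of it for 0, beside 2.48%. The 13 were Dnai2, Ccdc151, Dnah1, Dnah12, Cfap43, Ccdc39, Spag6, Spag17, Dnaaf1, Zmynd10, Lrrc6, Tekt1 and Tekt2. The difference was 0.84 ± 0.21 (SE, adjusted p = 0.00748) on the log2 scale for Lrrc6, 0.68 ± 0.16 (SE, adjusted p = 0.00562) for Dnai2 and 0.37 ± 0.11 (SE, adjusted p = 0.0382) for Tekt2, with the others between the last and the first. The count was 8 without air replicate 4 of the 11.25 mg/m3 set and 20 without its air replicate 1. At the top, the effect at 180 mg/m3 was set against the mean effect at 90, 45 and 22.5 mg/m3. The difference was below 0 for all 39 members, with a median of -0.16 against -0.0079 over all genes. None was called by edgeR, beside 0.394% of all genes called lower and 1% called higher, although 3 members had an unadjusted p under 0.05, and the smallest adjusted p was 0.184. The number of members below 0 was 34 to 39 when single rats were left out. It was 36 with 57 libraries and 28, at a median of -0.047, with all 60 libraries. The members' log2 fold change was largest at 45 mg/m3 for 24 genes, at 22.5 for 11 and at 90 for 4, and for 0 genes at 180 or 11.25 mg/m3.

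The 5 air groups gave the baseline. A difference among them was called for 2 members, beside 7.11% of all genes: Cfap43 (adjusted p = 0.0367) and Cfap44 (adjusted p = 0.0157). Cfap43 was at 53.7 to 83.1 CPM in the air rats of the 11.25 mg/m3 set, whose median was 74.7 CPM. In the other air groups its medians were 56.5, 57.8, 53.1 and 56.4 CPM at 180, 90, 45 and 22.5 mg/m3. The members' sum without Tppp3 had a mean of 922.9 CPM in the air rats of the 11.25 mg/m3 set. In the other air groups it was 782.2, 816.9, 786.4 and 779.9 CPM, in the same order. Against the pooled air rats, 33 of 39 members were above 0 at 11.25 mg/m3, with a median of 0.19 and 0 calls. The medians of the upper 4 sets were then 0.28, 0.45, 0.51 and 0.42. The part of this baseline in the 11.25 mg/m3 results, alone or against the upper sets, was not tested. No difference among air groups was called without air replicate 2 or 4 of the 11.25 mg/m3 set. The members also varied together within groups. Air replicate 1 of that set was the lowest of its 6 rats for 33 of the 39 members, and exposed replicate 6 was the lowest of 5 for 31. After 90 mg/m3 air replicate 4 was the lowest of 6 for 32 members. At 180 mg/m3 exposed replicate 4 was the highest of 5 for 28 members. In the same rats, the summed level of the club cell list was 7171, 7313, 7528 and 5865 CPM and that of the smooth muscle and cartilage list 482.6, 455.5, 423.8 and 592.3 CPM. For the first 3 rats both sums were the lowest of their group, and for the last both were the highest. Other rats did not go this way. Air replicate 4 of the 45 mg/m3 set was the lowest of 3 for 26 members. Its club and muscle sums, 9098 and 459.4 CPM, were the highest of that group. Air replicate 1 of the same set was the highest of 3 for 28 members. Its muscle sum, 423.7 CPM, was the lowest of that group, and its club sum was 8421 CPM. How far single rats set the cilium results this way was not tested.

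**Figure D4:**
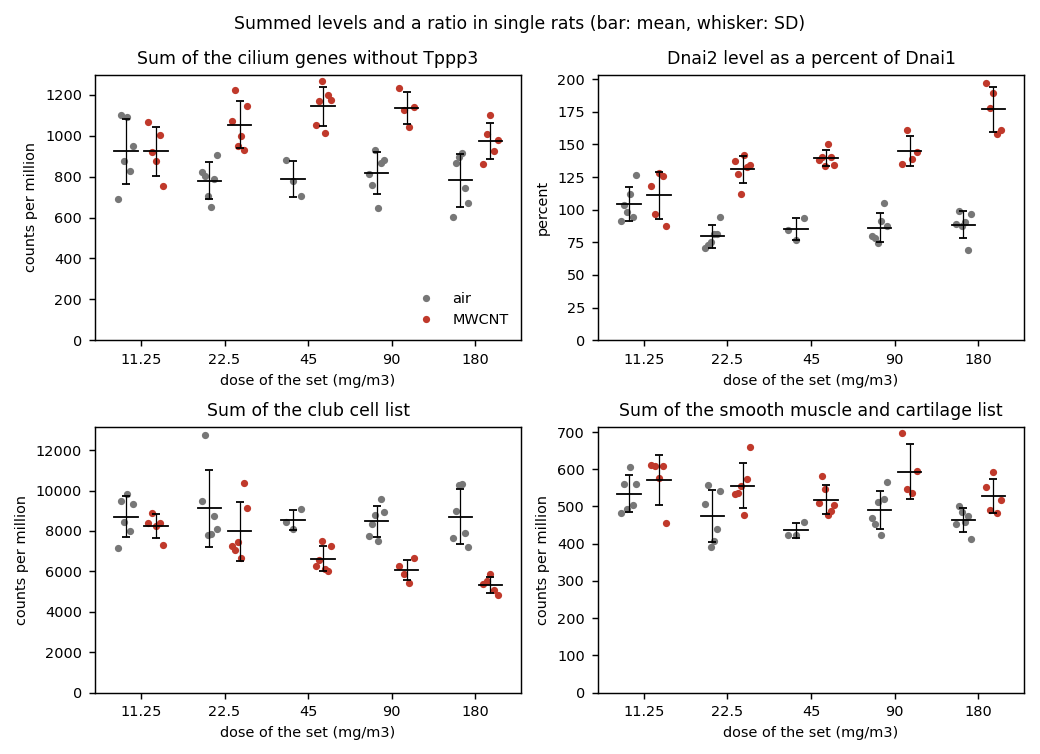
Values in single rats (points) with the mean and SD of each group, for air and MWCNT rats by the cumulative dose of the set in mg/m3: the summed level of the cilium genes without Tppp3, Dnai2 as a percent of Dnai1, and the summed levels of the club cell list and of the smooth muscle and cartilage list. The cilium sum and the percent are above air at the middle doses. The club sum, in which Scgb1a1 has the highest level, falls below air from 45 mg/m3 upward. The muscle sum overlaps air in every set but that of 45 mg/m3.

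Lists of the wider programme, drawn up by name, were read beside the members, and differences between lists were not tested. Among 15 tested regulators of cilium formation, 9, 10, 7, 8 and 2 rose at 180, 90, 45, 22.5 and 11.25 mg/m3, beside 12, 6.82, 3.32, 5.18 and 0.025% of all genes, and 0 fell. The list includes the centriole genes Plk4, Cep152 and Stil and the cell cycle genes E2f4 and E2f5. All 10 genes of a proliferation list rose in each of the upper 4 sets, beside the same shares of all genes. The part of proliferation in the regulator counts was not tested. Foxj1 ran from 63.8 to 79.3 CPM at 180 mg/m3, against 33.1 to 55.8 CPM in air, and rose in the upper 4 sets by 0.62, 0.85, 0.77 and 0.76 on the log2 scale. Ccno, needed for the many centrioles of a ciliated cell, ran from 17.9 to 22.6 CPM at 22.5 mg/m3, against 1.24 to 1.91 CPM in air. It rose in all 5 sets, by 3.17, 3.53, 3.37, 3.67 and 1.52. At 11.25 mg/m3 it ran from 3.98 to 5.56 CPM, against 1.27 to 2.11 CPM in air, so the groups were apart at the dose where no axoneme gene was called. The adjusted p there was 3.63e-08. Foxn4, a transcription factor of ciliated cell formation, was the other regulator called at that dose, at 1.79 (adjusted p = 0.0206). Mcidas, an early switch of the ciliated fate, rose in the upper 4 sets by 2.40 to 3.42. The RFX genes Rfx2 and Rfx3 were called in no set.

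Among 38 further motility genes, 13 rose and 1 fell at 180 mg/m3, and 25, 21, 20 and 0 rose from 90 mg/m3 down, beside the same shares of all genes. Their median log2 fold change was 0.32, 0.48, 0.54, 0.42 and 0.03 from the highest dose down. Genes among those with the smallest p for the mean effect were Ropn1l (0.99 ± 0.09), Stk33 (0.82 ± 0.08) and Wdr78 (0.43 ± 0.05). Intraflagellar transport carries parts along any cilium. Of its 19 tested genes 4, 6, 4, 6 and 0 rose, beside 12, 6.82, 3.32, 5.18 and 0.025% of all genes, with medians of 0.03, 0.18, 0.21, 0.16 and 0.05. For the mean effect 11 of the 19 rose, beside 16.5% of all genes, led by Ift74 (0.33 ± 0.04), Ift80 (0.29 ± 0.04) and Ttc26 (0.38 ± 0.05).

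Markers of other lung cells changed in the same rats. For the mean effect, the counts of genes called in these lists stand beside 16.5% of all genes called higher and 15.7% called lower. The summed club cell list was 4834 to 5865 CPM in rats exposed to 180 mg/m3, against 7208 to 10330 CPM in air. At 90 mg/m3 it was 5445 to 6651 CPM against 7528 to 9576 CPM, and at 11.25 mg/m3 7313 to 8905 CPM against 7171 to 9843 CPM. Of its 13 tested genes 6 fell and 4 rose for the mean effect. Scgb1a1, the main club cell secretory protein, changed by -0.77 ± 0.14 at 180 mg/m3 (adjusted p = 2.3e-05). Its highest level in a library was 9900 CPM, against 1521 CPM for Fmo2 of the same list, so the sum weighs Scgb1a1 most. At 45 mg/m3 the club sum was 5994 to 7482 CPM, against 8109 to 9098 CPM in air. There 7 of the 13 genes were above 0, with a median log2 fold change of 0.03. Of the 13, 2 were called higher and 1 lower at that dose, beside 3.32% and 2.09% of all genes. The goblet list summed to 119 to 332 CPM at 180 mg/m3, against 22.1 to 121 CPM in air, and 7 of its 8 tested genes rose for the mean effect. The basal list summed to 13.4 to 26.3 CPM, against 8.92 to 13.1 CPM, and 2 of 4 tested genes rose, while the basal marker Krt5 was at 0 in 21 of 53 libraries. The smooth muscle and cartilage list summed to 483 to 592 CPM at 180 mg/m3, against 411 to 501 CPM in air, and all 5 tested genes rose for the mean effect, by 0.11 to 0.38. Its cartilage markers Col2a1, Acan and Matn1 were at 0 in 38, 43 and 46 of 53 libraries. All 10 genes of the proliferation list rose for the mean effect, and their sum was 342 to 399 CPM at 180 mg/m3, against 140 to 204 CPM in air. The alveolar type 1 list summed to 7335 to 7455 CPM at 180 mg/m3, against 8456 to 9093 CPM in air, and 4 of its 9 genes fell for the mean effect. The alveolar type 2 list summed to 30320 to 32130 CPM at 180 mg/m3, against 23020 to 29500 CPM in air, and 3 of its 9 genes rose and 2 fell. Both alveolar sums were apart from air at that dose, and at 11.25 mg/m3 both overlapped air. The part of these shifts in the cilium results was not tested.

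In units of 1000000 counts, library totals ran from 8.1 to 16.2 with a median of 11.2. They were 8.1 to 9.92 in rats exposed to 180 mg/m3, against 9.82 to 12.7 in their air rats. A list of liver genes held 0.022 to 0.0533% of counts in the 53 libraries.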

How the data were processed

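Lung RNA of 60 rats was made into stranded mRNA libraries with 12 cycles of PCR, per the labels' protocols. The deposited values are raw counts per gene symbol. The submitters' processing notes name bcl2fastq 2.19, Trimmomatic 0.35, HISAT2 2.1.0, Cufflinks, SAMtools 1.8 and HTSeq 0.11.2. The alignment build is not given in the sources used here. Promoter coordinates therefore come from RefSeq on GRCr8 only. The members, the other gene lists and the tests were chosen with earlier results of these data known.

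Here counts of the 53 libraries without an outlier label were fitted in R 4.3.3 with edgeR 4.0.16 (filterByExpr with a minimum count of 10, TMM factors of 0.963 to 1.03, robust quasi-likelihood model with 10 group means, two-sided F-test). The filter left 15995 genes with 99.932% of counts, and the common biological coefficient of variation was 0.107. P-values were adjusted by Benjamini-Hochberg over all tested genes within a comparison, and the threshold was 0.05. The SE was obtained as the log2 fold change over the root of its F value. Levels (CPM) count reads in every 1000000 of the library. The code was tested on simulated data. Libraries of a group all differed beyond sampling noise, with chi-square over degrees of freedom of at least 2.53. Reads have no molecular identifiers.

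Members shown with single values were, in each role, the tested gene with the smallest p for the mean effect and, in each set, the 2 largest called rises and falls. Dnai1 was added after its values were seen. From each other list up to 4 called genes were eligible, plus Foxj1, Mcidas, Ccno and Scgb1a1. A gene that this rule picks is not reported here. Rfx2, Rfx3, Krt5 and the cartilage markers were added after their values were seen. Alternatives were other library sets, DESeq2 1.42.0, its size factors in edgeR, limma 3.58.1 (voom with quality weights), no filter, a filter of 1 CPM in 10 libraries, each set alone, a single control group of all air rats, linear dose and each library left out. The comparison of the upper 4 sets with the lowest dose, that of the top dose with the middle doses, the percent of Dnai1 and the search for GTTGCC were added after the values were seen.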

Additional observations from a re-analysis of the deposited data

Results flagged for a closer look

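Among 117 groups of values tested for a stray library, 3 were found, where chance alone gives about 5% of groups. For Dnai2, 1 rat exposed to 11.25 mg/m3 was at 9.076 CPM, with the next at 14.14 CPM. For Tekt1, 1 rat exposed to 180 mg/m3 was at 26.1 CPM, with the next at 20.32 CPM. For Tppp3, 1 air rat of the 22.5 mg/m3 set was at 987.2 CPM, with the next at 672.1 CPM.

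The MWCNT effect differed among the 5 sets for Dnaaf1 (edgeR adjusted p = 0.0209) and Lrrc6 (edgeR adjusted p = 0.0372). It was larger over the upper 4 sets than at 11.25 mg/m3 for 13 members, a comparison added after the values were seen. The differences on the log2 scale were 0.684 for Dnai2, 0.615 for Ccdc151, 0.62 for Dnah1, 0.483 for Dnah12 and 0.469 for Cfap43. They were 0.474 for Ccdc39, 0.591 for Spag6, 0.7 for Spag17, 0.654 for Dnaaf1 and 0.429 for Zmynd10, and 0.84 for Lrrc6, 0.64 for Tekt1 and 0.365 for Tekt2.

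Of the libraries labelled as outliers, 3 held far more counts of liver genes than the others. The liver list took 21.9% of counts in air replicate 5 of the 45 mg/m3 set, 23.7% in exposed replicate 5 of the 90 mg/m3 set and 25.2% in exposed replicate 6 of that set. In the 4 others it took 0.0292 to 0.449%, and in the 53 analysed libraries 0.022 to 0.0533%. In the 3 libraries the 43 cilium genes summed to 34.91, 49.81 and 28.66 CPM.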

How the results depend on the processing

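The counts of rising members at each dose stayed within 1.5 times under DESeq2, its size factors in edgeR, limma voom, either filter and each set alone. With all 60 libraries, which adds the 7 labelled as outliers, 0, 1, 4 and 1 members rose at 180, 90, 45 and 22.5 mg/m3, and 10 rose for the mean effect. No member then fell at 180 mg/m3 or for the mean effect, and 0 had a trend with dose in either direction, a difference among sets, a difference among air groups or a larger effect over the upper 4 sets. At 90 mg/m3 the log2 fold change of Ccdc114 became -0.13, of Cfap43 -0.0596, of Dnaaf3 -0.0031 and of Hydin -0.097. With 57 libraries, which leaves out only the 3 whose liver share was highest, 19, 21, 22 and 20 members rose. With no filter or with linear dose, 0 members had a rising trend. With no filter 1 member differed among air groups, and by DESeq2 4 did. By DESeq2 or limma voom 9 members differed among sets. A fall of 1 member was called at 45 mg/m3 by limma voom and with 57 libraries, at 90 mg/m3 by limma voom and with each set alone, and for the top dose against the middle doses by limma voom. Shares of all genes called were not kept for these alternatives or for the fits that left out 1 rat. A change in the number of calls is therefore not shown to be particular to the cilium genes.

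Leaving out 1 rat gave 11 to 22 rising members at 180 mg/m3, 18 to 24 at 90, 11 to 24 at 45, 16 to 23 at 22.5, 0 at 11.25 and 32 to 34 for the mean effect. It gave 0 to 5 rising and 0 to 1 falling trends, 0 to 11 members that differed among sets, 0 to 3 that differed among air groups, and 8 to 20 with a larger effect over the upper 4 sets. For the top dose against the middle doses 0 to 1 members fell. No paired analysis was possible because each rat has its own number in the labels and no number is shared between groups. Dnah5, Dnah7, Rsph4a and Spag16 could not be tested at this depth.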

Other observations

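The other 4 libraries with an outlier label entered only the alternatives with 57 or 60 libraries. The 43 cilium genes summed to 2008 CPM in air replicate 3 and 1330 CPM in air replicate 6 of the 45 mg/m3 set, to 1700 CPM in exposed replicate 2 of the 11.25 mg/m3 set and to 1479 CPM in exposed replicate 1 of the 180 mg/m3 set. In the 53 analysed libraries, Tppp3 included, the same sum was 1199 to 1881 CPM. In the same order as above, the totals of the 4 libraries were 5.19, 18.5, 11.6 and 7.77 in units of 1000000 counts, and liver genes held 0.0292, 0.449, 0.285 and 0.182% of them.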
